A study of Mus musculus with 4 samples.

Results

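The NF-kB group was a set of 10 mouse genes, chosen by name: the transcription factor subunits Nfkb1, Nfkb2, Rel, Rela and Relb, the inhibitor of kappa B (I kappa B) proteins Nfkbia, Nfkbie, Nfkbiz and Bcl3, and the feedback inhibitor Tnfaip3. Each gene was read from the probe set of an Affymetrix array whose platform symbol was that gene alone. This gave 9 of the 10 genes, with 1 probe set each, out of 19938 genes named in this way. Nfkb1, whose product is processed to the p50 subunit, was not analysed here. All 9 lay above the filter on dim genes that left 14995 genes to test. Even the lowest array of each lay at least 0.83 log2 units above the mean level of olfactory receptor genes, which served as a background reference (a mean 95th percentile of 5.90). The closest was Nfkbie at 6.73 on M-CSF M2 replicate 2, an array whose own reference was higher, at 6.06.

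The cells were bone marrow cells of C57BL/6J mice grown for 7 days, in 2 groups of 2 arrays. Cells labelled GM-CSF M1 received granulocyte-macrophage colony-stimulating factor (GM-CSF) and were sorted as CD45+, MHCII+, CD8a- and F4/80+. Cells labelled M-CSF M2 received macrophage colony-stimulating factor (M-CSF) from L929 fibroblast supernatant at 20% and were sorted as CD45+, F4/80+ and CD11b+. No stimulus such as lipopolysaccharide is named in the labels. Growth factor, supernatant and sort gate differed together and cannot be told apart. The labels do not say whether the arrays of a group came from separate mice or cultures, and p-values cover no more than the spread between these arrays, which for the M-CSF M2 pair may be technical.

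NF-kB factors are dimers of Rel-family subunits that wait in the cytoplasm, bound by I kappa B proteins. A signal from a Toll-like, interleukin-1 or TNF receptor leads a kinase complex to mark I kappa B for destruction, and the dimers then enter the nucleus. A slower route, driven by the kinase of Map3k14, processes the Nfkb2 product and frees RelB dimers. Several inhibitors, among them Nfkbia, Nfkbie and Tnfaip3, are themselves NF-kB target genes and close a negative feedback loop, and in macrophages the system controls many cytokine and chemokine genes. The arrays measured RNA and not nuclear NF-kB, so they give transcript levels of the parts of this system.

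The arrays did not lie equally close within the groups. Over the 14995 genes, the log2 difference between arrays of 1 group had an SD of 0.325 for GM-CSF M1 and 0.1798 for M-CSF M2. GM-CSF M1 replicate 1 also stood apart by sex-linked genes. Xist, a marker of female cells, was at 11.58 on the log2 scale against 4.53 to 4.93 in the other 3 arrays, and the Y-linked gene Eif2s3y was at 3.66 against 9.10 to 9.32. The GM-CSF M1 pair thus differed in sex markers, and in the gap between these arrays sex cannot be told apart from other differences between the samples. The fit of 4 arrays is unbalanced, with female markers on 1 array of the GM-CSF M1 group only. Without GM-CSF M1 replicate 1, all arrays left carry male markers. Without GM-CSF M1 replicate 2, sex markers and group differ together and cannot be told apart. Of 7 measured macrophage markers (Csf1r, Adgre1, Cd68, Itgam, Fcgr1, Mertk and Lyz2), 0 passed limma's test between the groups (1 at an unadjusted p under 0.05), and their median level was 11.81 and 11.97 in the GM-CSF M1 arrays and 11.87 and 11.84 in the M-CSF M2 arrays. A list of 10 dendritic cell genes had 3 members higher in GM-CSF M1 cells (Itgax, Clec9a and Ccr7), a share of 30% against 10.7% of all genes. The summed linear values of the list were 2554 and 1801 against 600 and 627 in M-CSF M2 cells. Itgax was by far the brightest of the list in GM-CSF M1 cells. Both GM-CSF M1 arrays lay above both M-CSF M2 arrays for 5 of the list, among them Zbtb46 (0.25, limma adjusted p = 0.323). They lay below for 4 (Batf3, Flt3, Dpp4 and Xcr1), none past the test. Clec9a lay below the background reference on both M-CSF M2 arrays, and Flt3, Dpp4 and Xcr1 on every array. With genes below the reference in a group taken from it, the median log2 difference of the list fell from 0.19 to 0.07. Of 9 neutrophil genes tested, Mpo and Csf3r were lower in GM-CSF M1 cells, where Mpo lay below the background reference. Both GM-CSF M1 arrays lay above both M-CSF M2 arrays for 3 (Ly6g, S100a8 and Camp, none past the test) and below for 3. Sums over the 10 listed were 2114 and 1554 against 2413 and 2182 in M-CSF M2 cells, and Csf3r was the brightest. Of 4 B and T cell genes tested, Cd4 and Cd79b were lower, and Cd3e and Cd8a did not pass. Cd79a, Ms4a1, Cd3d and Cd3g lay below the filter. Sums over 8 genes were 464 and 508 against 1514 and 1546, and Cd79b was the brightest. The shares called were 22.2% and 50%, against 10.7% of all genes. Clec9a and Csf3r lost their calls without either M-CSF M2 array, and Ccr7 and Cd4 without M-CSF M2 replicate 1, while Cd79b kept its call. In such bulk samples, more cells of a type and more RNA per cell cannot be told apart, and the part of other cell types in the results was not tested.

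Of the 9 NF-kB genes, 1 differed between the groups. Nfkbie, which encodes the inhibitor I kappa B epsilon, was 2.76-fold higher in GM-CSF M1 cells. The other 8 did not pass the test, and their log2 differences (GM-CSF M1 minus M-CSF M2) ran from -0.76 for Nfkbiz to 0.39 for Tnfaip3. Each gene was tested with limma, a linear model with moderated variances, and called at a Benjamini-Hochberg adjusted p under 0.05 over all 14995 genes. At that threshold 10.7% of all genes passed, 6.18% higher and 4.53% lower, so 1 call in 9 genes (11.1%) is near the background. At an unadjusted p under 0.05, 3 members were higher (Nfkbie, Rel and Tnfaip3) and 0 lower, where 12.8% of all genes were higher and 12.6% lower. The 2 groups did not overlap for 6 members, 5 higher and 1 lower. That is also near the background, since 55.4% of all genes did not overlap, 26.3% higher and 29.2% lower. The median log2 difference was 0.19 over the 9 members and -0.01 over all genes tested.

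**Figure D1:**
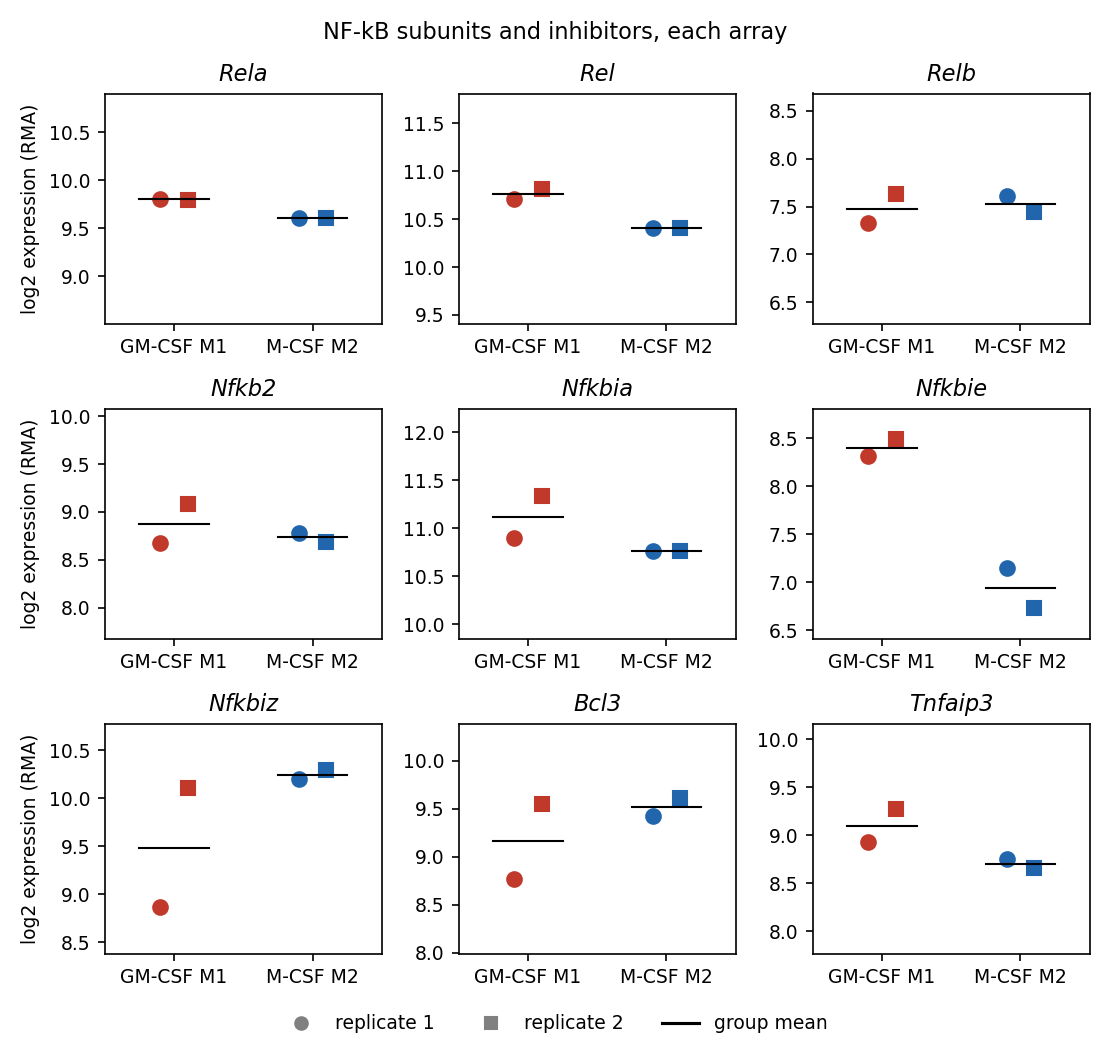
Log2 expression (RMA, vertical axis, of the same height in each panel) of the 9 measured NF-kB genes on each array, GM-CSF M1 left in red and M-CSF M2 right in blue, with circles for replicate 1, squares for replicate 2 and a line at each group mean. Nfkbie has GM-CSF M1 arrays at 8.32 and 8.49 and M-CSF M2 arrays at 7.15 and 6.73, while Nfkbiz and Bcl3 have GM-CSF M1 replicate 1 far below the other arrays.

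Rela, Rel and Relb encode the subunits with a transactivation domain. Rela encodes p65, the main subunit of the rapid pathway. Its value was 9.81 and 9.80 in GM-CSF M1 cells, against 9.61 and 9.61 in M-CSF M2 cells (all levels are log2 RMA values of replicates 1 and 2 in turn). The groups did not overlap and the arrays within each lay within 0.01 of each other, but the difference was small, at 0.19 ± 0.10 (SE, n = 2 per group), with a 95% interval of -0.05 to 0.44 (limma adjusted p = 0.305). As a fold the interval ran from 0.963 to 1.36, and it covers no more than the spread between these arrays.

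Rel encodes c-Rel, a subunit of haematopoietic cells that drives cytokine genes such as Il12b. It read 10.70 and 10.81 in GM-CSF M1 cells, against 10.41 and 10.40 in M-CSF M2 cells. Both GM-CSF M1 arrays lay above both M-CSF M2 arrays. The log2 difference of 0.35 ± 0.11 had an interval of 0.09 to 0.61 and did not pass over all genes (limma adjusted p = 0.096). Without GM-CSF M1 replicate 1 it was 0.41 and passed (limma adjusted p = 0.0488).

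Relb encodes the subunit freed by the slower route, and Nfkb2 its partner p52, made from the precursor p100. Relb read 7.33 and 7.63 in GM-CSF M1 cells, against 7.61 and 7.45 in M-CSF M2 cells. Nfkb2 read 8.67 and 9.08 in GM-CSF M1 cells, against 8.79 and 8.68 in M-CSF M2 cells. For both genes the groups overlapped, and the gap between the GM-CSF M1 arrays was wider than the group difference. Relb differed by -0.05 ± 0.14 with an interval of -0.39 to 0.29 (limma adjusted p = 0.883). Nfkb2 differed by 0.14 ± 0.16 with an interval of -0.24 to 0.53 (limma adjusted p = 0.653). The direction of each turned with the array left out: Relb was at 0.10 without GM-CSF M1 replicate 1 and at 0.03 without M-CSF M2 replicate 1, and Nfkb2 at -0.06 without GM-CSF M1 replicate 2.

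Many genes of this system carry binding sites for NF-kB close to their own start, which is the sequence side of the feedback loop. RefSeq promoter windows of the GRCm38.p6 build (250 bases before to 50 after a start) were in the table for 7 of the 9 measured genes, all but Relb and Nfkbiz. They were searched on both strands for the kappa B consensus of 10 bases, in which overlapping matches counted separately. Of all 32851 windows, 8.46% held a match and 1.22% held 2 or more. Of the 10 windows of these 7 genes, 8 held a match, and 6 of the 7 genes had 1 in at least 1 window. Overlapping windows of Nfkb2 share a GGGACTTTCC match, which is counted in each. The 8.46% is a share of windows, and a share per gene was not taken. The genes were chosen for their place in this pathway, so this is a description of their sequence. The 250 bases before the start of Rel (chr11:23770970-23771219, minus strand) and of Rela (chr19:5637291-5637540, plus strand) are shown as the pair of subunits with and without a match. Capitals mark matches, 2 overlapping ones in Rel that begin 92 and 91 bases before the start.
Rel: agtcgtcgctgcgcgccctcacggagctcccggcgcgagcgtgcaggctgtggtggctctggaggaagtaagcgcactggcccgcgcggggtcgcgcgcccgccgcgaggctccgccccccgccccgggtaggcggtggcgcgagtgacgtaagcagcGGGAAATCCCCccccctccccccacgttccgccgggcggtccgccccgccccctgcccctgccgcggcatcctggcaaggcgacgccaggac
Rela: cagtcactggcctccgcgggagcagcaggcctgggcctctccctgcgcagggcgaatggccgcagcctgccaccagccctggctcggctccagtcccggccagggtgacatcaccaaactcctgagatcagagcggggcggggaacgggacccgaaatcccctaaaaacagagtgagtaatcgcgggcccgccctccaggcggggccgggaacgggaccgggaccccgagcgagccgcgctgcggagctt
Both genes were slightly higher on both GM-CSF M1 arrays, with and without the match, and neither passed. A match is a run of letters and not a measured binding site, and none within the window says nothing about sites elsewhere.

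Of the genes for cytoplasmic I kappa B proteins, Nfkbie passed and Nfkbia did not. Nfkbie read 8.32 and 8.49 in GM-CSF M1 cells, against 7.15 and 6.73 in M-CSF M2 cells. The lower GM-CSF M1 array lay more than 1 log2 unit above the higher M-CSF M2 array, which makes the group difference wider than either replicate gap. The difference was 1.46 ± 0.16 (SE, n = 2 per group), with an interval of 1.06 to 1.86 or 2.09-fold to 3.64-fold (limma adjusted p = 0.004). Of all genes tested, 97.5% had a smaller or equal absolute difference. The M-CSF M2 arrays were 0.42 apart for this gene, a gap that 97.2% of genes did not exceed. Without M-CSF M2 replicate 2, the lower of them, the difference was 1.255 and the call was lost (limma adjusted p = 0.0581), and without M-CSF M2 replicate 1 it was 1.67 and held (limma adjusted p = 0.0319).

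Nfkbia encodes I kappa B alpha, the inhibitor that is destroyed and remade fastest after a signal. It read 10.90 and 11.33 in GM-CSF M1 cells, against 10.77 and 10.77 in M-CSF M2 cells. Both GM-CSF M1 arrays were higher, replicate 1 by little and replicate 2 by more. The difference was 0.35 ± 0.16 with an interval of -0.04 to 0.74 (limma adjusted p = 0.239), and it passed without GM-CSF M1 replicate 1, at 0.57 (limma adjusted p = 0.00731). Without GM-CSF M1 replicate 2 it was 0.13 (limma adjusted p = 0.562). The intervals of Nfkbie and Nfkbia did not overlap, and the difference between these genes was not tested.

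The 250 bases before the start of Nfkbie (chr17:45555450-45555699, plus strand) and of Nfkbia (chr12:55492648-55492897, minus strand) are shown because these inhibitors have like roles. Each holds 1 match to the kappa B consensus (capitals), 106 to 97 bases before the start in Nfkbie and 29 to 20 bases before it in Nfkbia.
Nfkbie: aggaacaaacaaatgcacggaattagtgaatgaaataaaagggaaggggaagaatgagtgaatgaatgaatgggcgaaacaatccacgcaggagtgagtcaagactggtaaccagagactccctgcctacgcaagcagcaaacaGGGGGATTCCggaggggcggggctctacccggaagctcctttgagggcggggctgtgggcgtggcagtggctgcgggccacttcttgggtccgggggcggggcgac
Nfkbia: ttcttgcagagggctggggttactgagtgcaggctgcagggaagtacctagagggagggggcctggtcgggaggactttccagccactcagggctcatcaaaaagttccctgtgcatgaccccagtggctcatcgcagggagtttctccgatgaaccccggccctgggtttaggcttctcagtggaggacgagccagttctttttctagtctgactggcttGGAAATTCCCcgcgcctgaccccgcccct
In this window the gene that passed and the gene that did not were alike in the number of matches and unlike in their place.

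The nuclear I kappa B genes Nfkbiz and Bcl3 had lower means in GM-CSF M1 cells, neither past the test, and both means rested on 1 array. Nfkbiz encodes I kappa B zeta, a partner of p50 that is needed for secondary response genes such as Il6. It read 8.86 and 10.10 in GM-CSF M1 cells, against 10.20 and 10.29 in M-CSF M2 cells. Both GM-CSF M1 arrays were below both M-CSF M2 arrays, replicate 1 by more than 1 log2 unit and replicate 2 by far less. The difference was -0.76 ± 0.37 with an interval of -1.66 to 0.13 (limma adjusted p = 0.267). It was -0.14 without GM-CSF M1 replicate 1 (limma adjusted p = 0.572), and -1.38 without GM-CSF M1 replicate 2, where it passed (limma adjusted p = 1.45e-06).

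Bcl3 encodes a nuclear protein that binds p50 or p52 dimers. It read 8.77 and 9.55 in GM-CSF M1 cells, against 9.42 and 9.61 in M-CSF M2 cells. GM-CSF M1 replicate 1 was the lowest array and replicate 2 lay within the M-CSF M2 range, so the groups overlapped. The difference was -0.35 ± 0.25 with an interval of -0.96 to 0.25 (limma adjusted p = 0.455). It turned to 0.04 without GM-CSF M1 replicate 1 and was -0.745 without GM-CSF M1 replicate 2 (limma adjusted p = 0.00103).

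Tnfaip3 encodes A20, a ubiquitin-editing enzyme that shuts down signalling upstream of the kinase complex. It read 8.93 and 9.27 in GM-CSF M1 cells, against 8.75 and 8.66 in M-CSF M2 cells. The groups did not overlap. The difference was 0.39 ± 0.14 with an interval of 0.05 to 0.74 (limma adjusted p = 0.15), and it passed without GM-CSF M1 replicate 1, at 0.57 (limma adjusted p = 0.00786). Tnfaip3 had 2 windows in the promoter table, and the one farther upstream held 2 matches to the consensus while the other held 0.

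**Figure D2:**
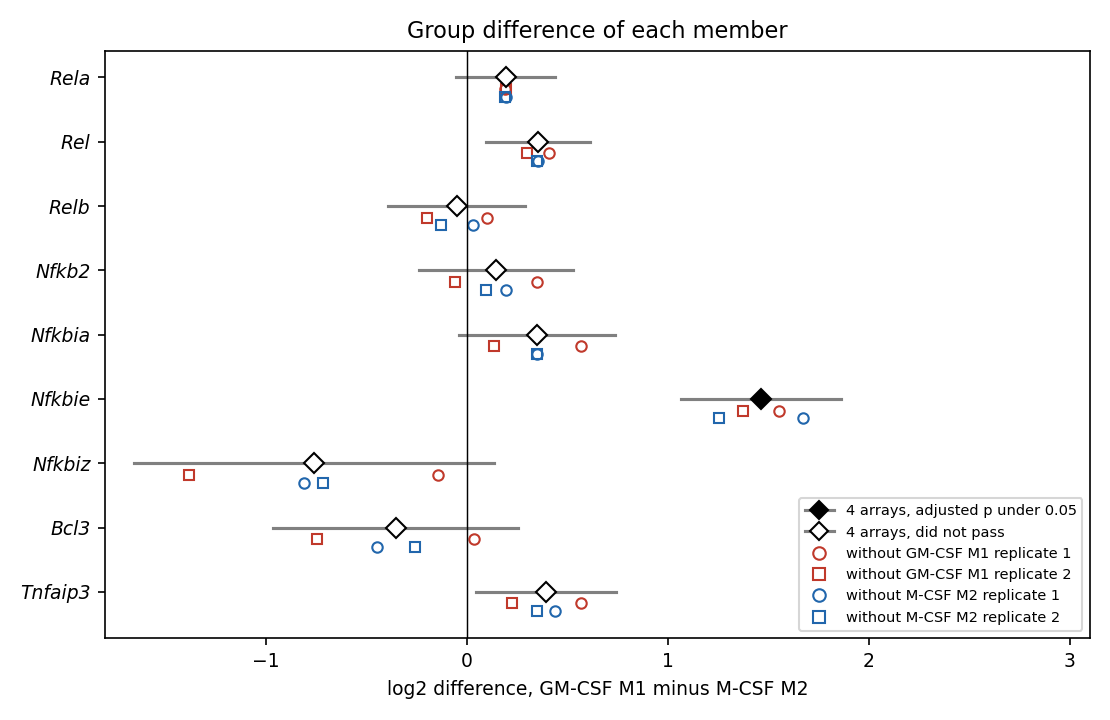
Log2 difference between GM-CSF M1 and M-CSF M2 cells (horizontal axis, positive where GM-CSF M1 is higher) for the 9 genes, with diamonds for the fit of 4 arrays, lines for 95% intervals and small open symbols for the fits that leave out 1 array. Nfkbie lies between 1.255 and 1.67 in these fits, while Nfkbiz runs from -1.38 to -0.14 and Bcl3 from -0.745 to 0.04.

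How many members were called depended on which array of a group was kept. Without GM-CSF M1 replicate 1, 4 of the 9 were higher (Nfkbie, Nfkbia, Rel and Tnfaip3) and 0 lower, where 17.6% of all genes passed. Without GM-CSF M1 replicate 2, Nfkbie was higher and Nfkbiz and Bcl3 were lower, where 21.4% of all genes passed. Such fits take their spread from the closer M-CSF M2 pair alone, so more genes pass in them by construction. Without M-CSF M2 replicate 1, Nfkbie alone of the members passed, where 1.74% of all genes did, and without M-CSF M2 replicate 2 none passed, where 1.55% of all genes did. These fits take their spread from the wider GM-CSF M1 pair.

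The GM-CSF M1 arrays differed from each other in most of these genes, and mostly the same way. Replicate 2 was above replicate 1 for 8 of the 9 members, all but Rela, against 56% of all genes. The median difference between these arrays was 0.34 over the members and 0.03 over all genes. For Nfkbiz the gap was 1.24, which 99.1% of all genes did not exceed, and for Bcl3 it was 0.78, which 97.3% did not exceed. The gap between the M-CSF M2 arrays was the smaller one for 8 of the 9 members, all but Nfkbie, and for 57.8% of all genes the M-CSF M2 gap was smaller too. Of the lists described below, GM-CSF M1 replicate 2 was above replicate 1 for 23 of 30 adaptors and kinases, 14 of 22 receptors, 14 of 22 other inhibitors and 24 of 47 targets. A list of early response and dissociation stress genes moved the same way between the GM-CSF M1 arrays. All 11 measured ones, among them Fos, Dusp1 and Junb, were higher on replicate 2 than on replicate 1, with summed linear values of 10023 and 6002. Between the M-CSF M2 arrays, replicate 2 was above replicate 1 for 8 of these 11 (median difference 0.16) and for 2 of the 9 members (median difference -0.01). Between the groups, 1 of these 11 passed (Egr1, higher by 0.66, limma adjusted p = 0.0308, lost without M-CSF M2 replicates 1 and 2 at adjusted p of 0.235 and 0.109), and their sums were 6002 and 10023 in GM-CSF M1 cells against 5966 and 6433 in M-CSF M2 cells. The GM-CSF M1 arrays also carried opposite sex markers, and the part of sex or handling in the member differences was not tested.

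**Figure D3:**
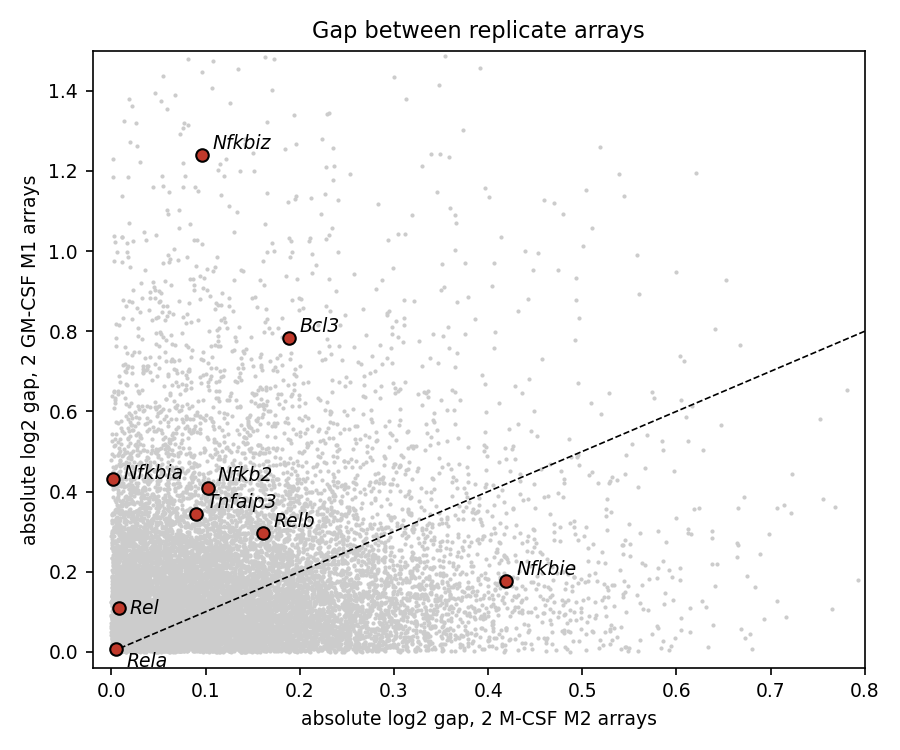
Absolute log2 gap between the 2 GM-CSF M1 arrays (vertical axis) against that between the 2 M-CSF M2 arrays (horizontal axis) for all genes tested (grey, with 110 of 14995 beyond the axes) and the 9 NF-kB genes (red). The dashed line marks equal gaps: Nfkbiz at 1.24 and Bcl3 at 0.78 lie far above it, and Nfkbie lies below it.

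Upstream of NF-kB, some receptors were higher in GM-CSF M1 cells. Of 21 receptors tested, 4 passed as higher and 0 as lower, a share of 19.0% against 10.7% of all genes. The median log2 difference was 0.30. At an unadjusted p under 0.05, 7 were higher and 3 lower, where 12.8% of all genes were higher and 12.6% lower. Clec7a, which encodes the beta-glucan receptor dectin-1, read 10.92 and 10.35 in GM-CSF M1 cells, against 7.36 and 7.03 in M-CSF M2 cells, a difference of 3.44 ± 0.21 (limma adjusted p = 0.000511). Cd14, the co-receptor for lipopolysaccharide, read 11.45 and 11.57, against 9.83 and 9.87 in M-CSF M2 cells, a difference of 1.66 ± 0.11 (limma adjusted p = 0.00057). These receptor genes were far apart between the groups on every array. Tlr2, a receptor for bacterial lipoproteins, and Tnfrsf1b, a TNF receptor, were higher by 0.95 and 0.94 (limma adjusted p = 0.0209 and 0.00728). Both calls were lost without M-CSF M2 replicate 1 and without replicate 2 (limma adjusted p = 0.159 and 0.221 for Tlr2, 0.103 and 0.13 for Tnfrsf1b). Over the list, 10 and 8 receptors were higher and 3 and 5 lower without GM-CSF M1 replicates 1 and 2, where 9.79% and 11.2% of all genes were higher and 7.86% and 10.2% lower. Without M-CSF M2 replicates 1 and 2, 2 and 2 receptors were higher and 0 and 0 lower, where 1.31% and 1.12% of all genes were higher and 0.433% lower both times. Tlr1, which pairs with Tlr2, was named after its values were seen: it read 9.13 and 10.67 in GM-CSF M1 cells, against 11.50 and 11.42 in M-CSF M2 cells, and its difference of -1.56 ± 0.45 did not pass (limma adjusted p = 0.0858). Without GM-CSF M1 replicates 1 and 2 it was -0.79 and -2.33, and passed both times (limma adjusted p = 0.000585 and 3.11e-09). With array weights per group it passed as well (limma adjusted p = 0.049).

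Between the receptors and NF-kB, most adaptors and kinases did not pass. Of 30 tested, 3 passed as higher and 0 as lower, a share of 10.0% that is near the 10.7% of all genes, with a median of 0.13. At an unadjusted p under 0.05, 5 were higher and 3 lower, where 12.8% of all genes were higher and 12.6% lower. Malt1, the protease and scaffold that links dectin-1 and antigen receptors to NF-kB, read 10.16 and 9.69 in GM-CSF M1 cells, against 7.50 and 7.35 in M-CSF M2 cells, a difference of 2.49 ± 0.17 (limma adjusted p = 0.000698). Its partners in that complex, named after their values were seen, did not pass: Card9 differed by 0.31 and Bcl10 by 0.24 (limma adjusted p = 0.138 and 0.248). Traf1, an adaptor of TNF receptors and itself an NF-kB target, read 8.67 and 8.76, against 6.46 and 6.06 in M-CSF M2 cells, a difference of 2.46 ± 0.15 (limma adjusted p = 0.000524). Traf5, another adaptor, was higher by 0.99 (limma adjusted p = 0.0203) and lost its call without M-CSF M2 replicates 1 and 2 (limma adjusted p = 0.156 and 0.218). The kinase complex genes Ikbkb and Ikbkg differed by 0.01 and 0.11, and Map3k14 by -0.17, with none past the test (limma adjusted p = 0.974, 0.58 and 0.367); these 3 were named after their values were seen. As over all genes, more of the list passed without either GM-CSF M1 array and fewer without either M-CSF M2 array.

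Among other inhibitors, 2 of 22 were higher in GM-CSF M1 cells and 0 lower, with a median of 0.04. That share of 9.09% is near the 10.7% of all genes. At an unadjusted p under 0.05, 4 were higher and 3 lower, where 12.8% of all genes were higher and 12.6% lower. Nfkbid, a further nuclear I kappa B gene, read 7.86 and 7.99 in GM-CSF M1 cells, against 7.00 and 6.91 in M-CSF M2 cells, a difference of 0.97 ± 0.11 (limma adjusted p = 0.00432). N4bp1, an RNA-degrading inhibitor of cytokine output, was higher by 0.59 ± 0.12 (limma adjusted p = 0.0298). Both lost their calls without M-CSF M2 replicates 1 and 2 (limma adjusted p = 0.0789 and 0.0979 for Nfkbid, 0.215 and 0.251 for N4bp1). Nfkbib, which encodes the third classical cytoplasmic inhibitor I kappa B beta and was named after its values were seen, read 10.53 and 10.59 in GM-CSF M1 cells, against 10.16 and 10.17 in M-CSF M2 cells. Its difference of 0.39 ± 0.10 did not pass (limma adjusted p = 0.065), and it passed with a stricter filter (limma adjusted p = 0.0499), with trended and robust variances (0.0439) and without GM-CSF M1 replicate 1 (0.0408). Over the list, more genes passed without either GM-CSF M1 array and fewer without either M-CSF M2 array, as was the case over all genes. Of the I kappa B genes named here, Nfkbie and Nfkbid passed, both higher, and Nfkbia, Nfkbib, Nfkbiz and Bcl3 did not. By array, Nfkbie, Nfkbia, Nfkbib and Nfkbid were higher on both GM-CSF M1 arrays, Nfkbiz was lower on both, and Bcl3 overlapped. The groups did not overlap for 55.4% of all genes, so no split in direction is read from these genes.

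Many genes known as NF-kB targets were higher in GM-CSF M1 cells. Of 45 tested, 24 were higher and 3 lower, with 18 not past the test, a share of 60.0% against 10.7% of all genes, with a median of 0.89 against -0.01 (0.85 with the 7 genes below the background reference in a group set to their bounds, or to 0 where both groups were below it). Many of them also respond to other factors, and earlier results of these data were known when the list was written, so the count is a description. The number of targets called fell without either M-CSF M2 array and rose without either GM-CSF M1 array, as did the number over all genes. Il1a, which encodes interleukin-1 alpha, was higher by 4.15 ± 0.34 and Ptges, a prostaglandin E synthase gene, by 3.35 ± 0.16 (limma adjusted p = 0.00122 and 0.000216). Cxcl3, which encodes a neutrophil chemokine, and the cytokine gene Il6 averaged 10.16 and 8.78 in GM-CSF M1 cells, but on both M-CSF M2 arrays they lay below the background reference of that array. Taken from that reference, Cxcl3 was at least 18.7-fold and Il6 at least 7.2-fold higher (limma adjusted p = 0.000724 and 0.000579 for the values as measured, with means of 5.26 and 4.98 in M-CSF M2 cells). Lower ones were Cd83, which encodes an immunoglobulin-family surface protein (-1.58 ± 0.17), Ccnd1, which encodes cyclin D1 (-1.22 ± 0.16), and Icam1, an adhesion molecule (-1.04 ± 0.11), with limma adjusted p of 0.00324, 0.00663 and 0.00355. These 3 lost their calls without M-CSF M2 replicates 1 and 2 (limma adjusted p = 0.0651 and 0.0849 for Cd83, 0.121 and 0.103 for Ccnd1, 0.0704 and 0.0873 for Icam1).

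Several well-known NF-kB targets did not pass. Tnf, the cytokine that both activates NF-kB and is its target, read 10.49 and 11.16 in GM-CSF M1 cells, against 10.70 and 10.77 in M-CSF M2 cells, and its difference of 0.09 ± 0.22 did not pass (limma adjusted p = 0.857). The chemokines Ccl3 and Ccl4 differed by 0.09 ± 0.10 and -0.03 ± 0.16 (limma adjusted p = 0.671 and 0.952). Birc3, another feedback target, differed by 0.23 ± 0.14 (limma adjusted p = 0.375). These 4 genes were named after their values were seen.

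**Figure D4:**
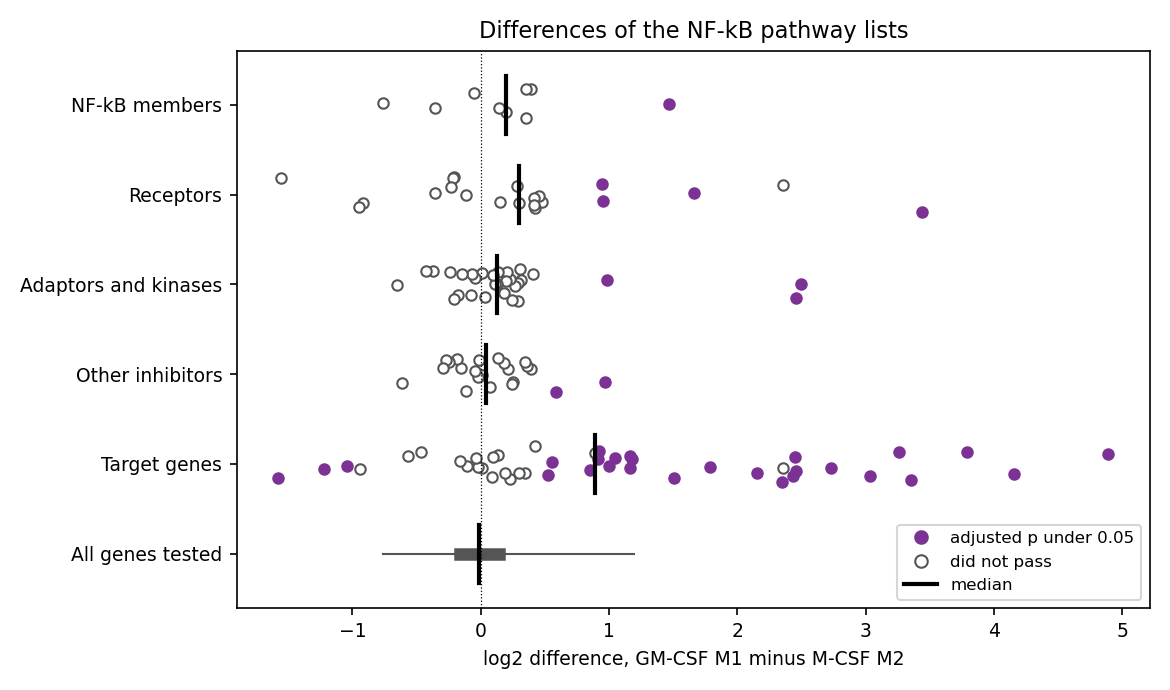
Log2 difference between GM-CSF M1 and M-CSF M2 cells (horizontal axis) of each tested gene of the NF-kB members and 4 further lists, filled where the adjusted p was under 0.05, with a black line at each median. The lowest row gives the median of all 14995 genes with their middle 50% (thick) and 95% (thin, from -0.76 to 1.19), and the target list has 27 of 45 genes filled against 1 of 9 members.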

How the data were processed

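Total RNA of 4 sorted cell samples was read on Affymetrix arrays with a single biotin label, per the labels' protocols. The authors deposited log2 values, 1 per probe set and array; the submitters' processing notes name RMA and Affymetrix Expression Console 1.1. RMA brings the probe intensities of all arrays to 1 distribution before they are summarised, so that a change in the total RNA of a cell cannot be seen, and changes of dim genes are compressed. Genome build and RMA level are not given in the sources used here, and the files hold no scan dates or batches to test.

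Probe sets (35556) were named from the platform annotation, and 21789 had 1 symbol. A gene was represented by its brightest probe set. Genes entered when at least 2 of 4 arrays exceeded that array's 30th percentile. Groups were compared with limma 3.58.1 (R 4.3.3; functions lmFit and eBayes; two-sided tests; degrees of freedom 2 residual plus 4.17 prior), with Benjamini-Hochberg adjustment and a threshold of 0.05. Intervals of 95% are limma's. The number of arrays limits the precision. Python 3.11.15 and matplotlib 3.10.9 drew the plots, and the fit was tested on simulated data. Named genes were all members and, of each pathway list, up to 4 genes with the largest difference among those that passed in each direction; other genes were named after their values were seen. Members and lists were chosen with earlier results of these data known. Alternatives were other filters, normalizations, probe set means, variance models, array weights, a stricter threshold, a replicate block and leaving out each array, with the genes tested kept.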

Additional observations from a re-analysis of the deposited data

How the results depend on the processing

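Dim-gene filters (none or the 50th percentile), median centring, quantile normalization, probe set means, trended and robust variances, array weights and the replicate block kept Nfkbie called (limma adjusted p from 0.00171 to 0.00589) and no other member. At an adjusted p under 0.01, 438 genes were higher and 223 lower, and 1 of the other inhibitors was higher. With the replicate block 1 receptor was lower, and with array weights 1 receptor and 1 other inhibitor were lower. The labels state no pairing of the replicate numbers. Deviations from the group means correlated at 0.065 between same-numbered arrays and at -0.065 between crossed ones. With 2 arrays per group these values mirror each other, so they cannot decide whether arrays were paired. The block gave 1640 calls against 1605. Leaving out each array in turn, from lowest to highest, gave 168 to 1683 genes higher and 65 to 1522 lower, 0 to 4 members higher and 0 to 2 lower, 2 to 10 receptors higher and 0 to 5 lower, 2 to 7 adaptors and kinases higher and 0 to 2 lower, 0 to 5 other inhibitors higher and 0 to 2 lower, and 10 to 28 targets higher and 0 to 5 lower. The log2 difference ran from 0.19 to 0.20 for Rela, 0.30 to 0.41 for Rel, -0.20 to 0.10 for Relb, -0.06 to 0.35 for Nfkb2, 0.13 to 0.57 for Nfkbia, 1.255 to 1.67 for Nfkbie, -1.38 to -0.14 for Nfkbiz, -0.745 to 0.04 for Bcl3 and 0.22 to 0.57 for Tnfaip3. Relb turned to 0.10 without GM-CSF M1 replicate 1 and 0.03 without M-CSF M2 replicate 1, Bcl3 to 0.037 without GM-CSF M1 replicate 1 and Nfkb2 to -0.061 without GM-CSF M1 replicate 2. Where 1 array of a group remained, its spread was taken from the other group. That is the closer M-CSF M2 pair in the fits without a GM-CSF M1 array and the wider GM-CSF M1 pair in the fits without an M-CSF M2 array. Any further cause of these shifts was not tested.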
